A study of Mus musculus with 20 samples.

Results

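The map described here is that of N6-methyladenosine (m6A) in the messenger RNA of control mouse hearts. It rests on the 5 db/+ animals of a study of 10 animals, and on 10 of its 20 libraries: an input library of poly(A) RNA and an anti-m6A immunoprecipitate from each heart. The db/+ mice carry 1 mutated copy of the leptin receptor gene and serve as the control genotype of the db model of diabetes. Their strain is labelled C57BL/6, their genotype field reads wild type while their titles read db/+, and the tissue is heart, not separated into chambers or cell types. Ages, sexes and any treatment were not analysed here, and no other genotype enters any value below.

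For each heart the deposited values used were the peaks called in its immunoprecipitate, with the authors' own fold and p-value, and its FPKM, the level of each transcript scaled by length and by the number of fragments. Peaks were listed animal by animal, so that a gene or region can be counted by the number of hearts, of 5, whose list holds it. Lines that repeated the position and strand of another were dropped. After this the 5 lists held 74342 distinct peaks, and the FPKM table held 11856 genes. The 125 symbols that had a peak but no FPKM line, 23 of them with a peak in all 5 hearts, were left out of gene counts.

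In mammals m6A is the most abundant internal modification of messenger RNA. It is written by a complex with METTL3 as its catalytic subunit, METTL14 as its partner and WTAP as an adaptor, is removed by FTO and ALKBH5, and is read by proteins of the YTH family that act on splicing, translation and decay. The mark is known to gather around stop codons, in long internal exons and in 3′ untranslated regions (UTR), at adenines within short motifs whose most frequent core is GGAC. In heart muscle it has been studied chiefly in hypertrophy and in the handling of transcripts for contraction and metabolism.

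Sequence was at hand for gene starts alone, as windows of 250 bases before and 50 bases after each RefSeq gene start (GRCm38.p6). Positions are the deposited ones: of 11500 listed genes found in the GRCm38.p6 table, 89.9% had a start or an end within 50 bases of it. In 12 windows, of 10 genes, a peak was listed in all 5 hearts. GGAC on the transcript strand was present in 7 of these 12 windows, or 58.3%, against 71.7% of all 11752 windows of listed genes, and on the opposite strand in 83.3% against 73.2%. The longer motif GGACT was in 16.7% of the 12 windows and 27.9% of all windows on the transcript strand, and in 25.0% and 27.8% on the opposite strand; every GGACT is also counted as a GGAC. In 4 of the 12 windows, a peak of each of the 5 hearts covered 50 or more bases. On the transcript strand GGAC was in 4 of these 4 windows (100%) and GGACT in 2 (50.0%). On the opposite strand GGAC was in 4 and GGACT in 0. A match only describes the letters of the window, which can lie outside the peak. The 5 GGAC matches that lay under a peak in all 5 hearts are printed as 28 bases of the transcript strand, 5′ to 3′, because they lie under a shared peak and sequence was available there; capitals mark GGAC.
Atp5k, chr5:108434353-108434380, minus strand: cgcgaaggtcacGGACaaaatggtgccc
Sptbn1, chr11:30219735-30219762, minus strand: agtaactgatgtGGACaagcagctgaga
Ptp4a2, first match, chr4:129820397-129820424, plus strand: cagcagcaagacGGACtcgtggacacgc
Ptp4a2, second match, chr4:129820405-129820432, plus strand: agacggactcgtGGACacgcgccgccgc
Pafah1b1, chr11:74724024-74724051, minus strand: gatgggagtgaaGGACggaagaggccct

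The peak over the Atp5k match had folds of 3.39, 2.87, 3.34, 3.17 and 2.83 in hearts db/+ 1 to 5. Atp5k codes for a small subunit of the mitochondrial ATP synthase, and its match begins at base 32 counted from the RefSeq gene start. The Sptbn1 match begins at base 23, whereas those of Ptp4a2, at -70 and -62, and of Pafah1b1, at -181, lie before that start. The peak over the Ptp4a2 matches, in the gene of a tyrosine phosphatase, had folds of 7.97, 6.29, 8.62, 10.6 and 7.19. That over the Pafah1b1 match had folds of 9.11, 3.75, 11.5, 11.6 and 4.36, and that over the Sptbn1 match had 6.01, 2.72, 7.23, 3.37 and 2.05. Pafah1b1 codes for a regulator of the motor protein dynein, and Sptbn1 for spectrin of the membrane skeleton. All folds are those of the authors' peak caller, and describe peaks within a list.

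The median FPKM of listed genes, a scaled measure, was 3.77 to 4.07 over the hearts, and the number of peaks varied more. Single transcripts could differ widely in level: Pdk4 was at 436, 563, 457, 399 and 88.6 FPKM in hearts db/+ 1 to 5. Hearts db/+ 1 to 5 had 12385, 13140, 14313, 14483 and 20021 distinct peaks, and 4147, 4183, 4693, 4659 and 6190 listed genes with a peak. Heart db/+ 5 stood apart, with 26.8% of its peaks in regions that no other heart had, where the other 4 had 8.08% to 10.1%. The share of FPKM from mitochondrial transcripts was 33.5% in this heart and 38.7% to 43.3% in the others; its part in the number of peaks was not tested. The median fold ranged from 3.18 to 3.82 and the median peak length from 180 to 210 bases. With FPKM and peaks alone in the files used, how deeply each library was sequenced is not known. The cardiomyocyte markers fixed for the check of the tissue (Myh6, Myl2, Tnnt2, Tnni3, Actc1, Pln, Ryr2 and Ttn) were all listed, with a summed level of 8435 to 10604 FPKM. The summed level of 7 fibroblast markers was 174 to 248 FPKM, of 7 endothelial markers 110 to 132 FPKM and of 7 macrophage markers 210 to 451 FPKM, and none of 7 lymphocyte markers had a line in the table. In whole hearts, fewer cells of a type and less RNA per cell cannot be told apart.

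Of the 11856 listed genes, 2799 (23.6%) had a peak in all 5 hearts, 4472 (37.7%) in 1 to 4 hearts and 4585 (38.7%) in none. Genes with a peak in 1, 2, 3 and 4 hearts numbered 1682, 1058, 849 and 883. Heart db/+ 5 alone supplied 1018 of the 1682, or 60.5%. Without it, 2855 genes had a peak in all of the other 4 hearts, 3398 in some and 5603 in none. Between any pair of hearts, the genes with a peak in both were 57.0% to 70.5% of those with a peak in either. Most genes of the shared class had a region common to all hearts: in 2579 of the 2799, at least 1 region held a peak of every heart. A region is a set of peaks of 1 strand joined by overlaps of 1 or more bases of exon. Peaks joined through others need not overlap each other, so a long region can hold peaks at different places. The other 220 had a peak in each heart with no region common to all 5.

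**Figure D1:**
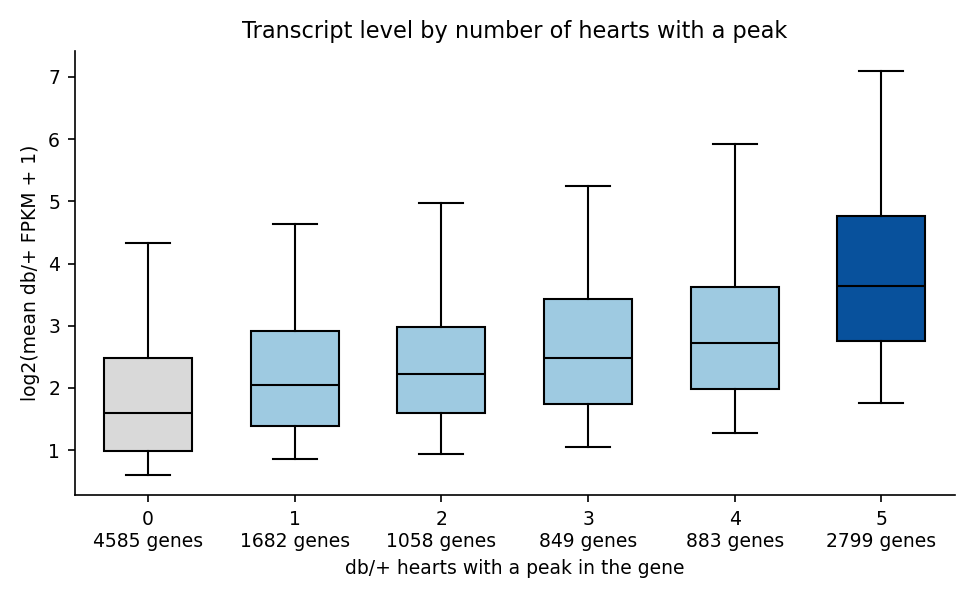
Transcript level of listed genes by the number of db/+ hearts with a peak in the gene. The vertical axis is log2(mean FPKM of 5 hearts + 1); boxes give the median and the quartiles, and whiskers the 5th and 95th percentiles of genes. The median is lowest for the 4585 genes with a peak in no heart and highest for the 2799 with a peak in all 5, with wide overlap between neighbouring classes.

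Transcripts with a peak in all hearts were those at higher levels. Their median level was 11.5 FPKM, with quartiles of 5.75 and 26.2, against 3.94 FPKM for genes with a peak in some hearts and 2.02 FPKM for genes with none, whose quartiles were 0.975 and 4.56. Within single hearts, the median log2(FPKM + 1) was 3.63 ± 0.019 for genes with a peak in all 5 and 1.58 ± 0.055 for genes with none (SD, n = 5). The difference was 2.05 ± 0.054, was positive in 5 of 5 hearts, and had p = 0.0625 in an exact two-sided sign-flip permutation test, the smallest p that this test allows with 5 hearts. The gene classes use the peaks of all 5 hearts, so these 5 differences are not independent of each other. Genomic length differed less, with a median of 25.0 kb for genes with a peak in all 5 and 20.6 kb for genes with none.

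**Figure D2:**
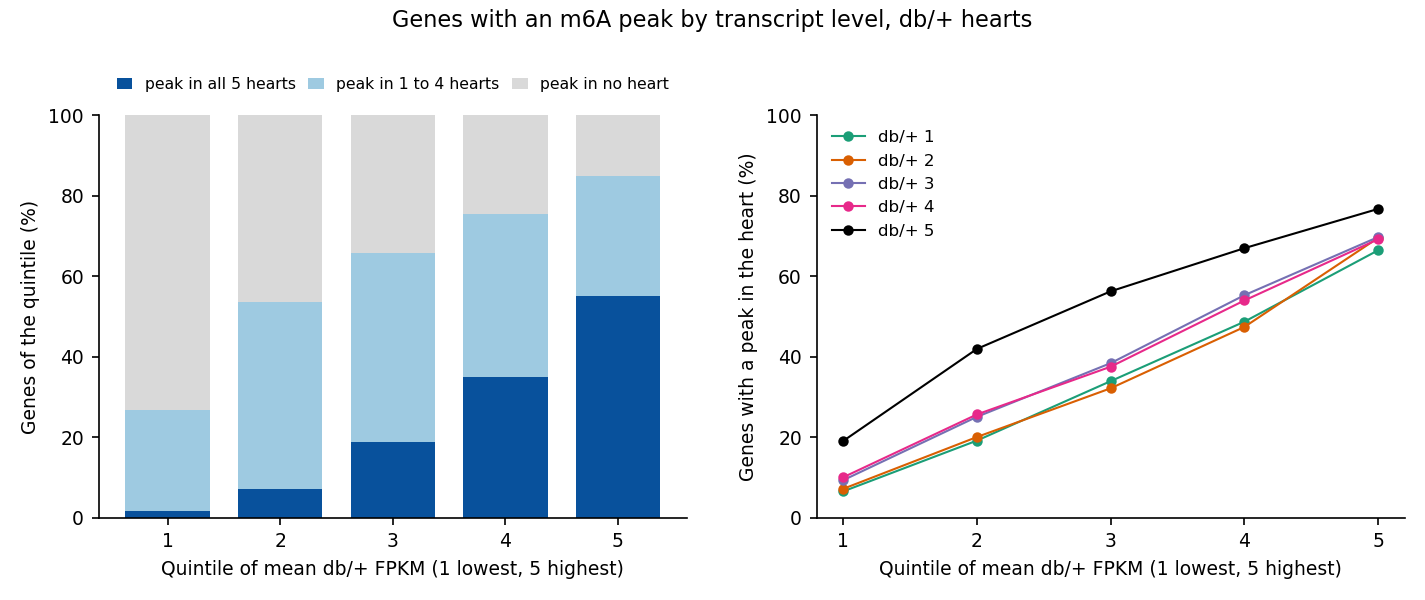
Left, share of genes with a peak in all 5, in 1 to 4 and in no db/+ heart, by quintile of mean FPKM. Right, share of genes with a peak in each heart, 1 line per heart. The shares with a peak climb from the lowest to the highest quintile in each of the 5 hearts, and heart db/+ 5 lies above the other 4 in every quintile.

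Across quintiles of mean FPKM, from lowest to highest, the share of genes with a peak in all 5 hearts was 1.77%, 7.17%, 18.9%, 35.0% and 55.2%, and the share with a peak in none was 73.1%, 46.5%, 34.2%, 24.5% and 15.0%. The average heart had a peak in 10.5 ± 5.04%, 26.4 ± 9.17%, 39.7 ± 9.62%, 54.5 ± 7.75% and 70.3 ± 3.82% of the genes of these quintiles (SD, n = 5). The top quintile, of genes at 12.5 FPKM or more, exceeded the bottom quintile, of genes up to 1.40 FPKM, by 59.9 ± 1.72 percentage points, with a range of 57.6 to 62.3 and the same sign in 5 of 5 hearts (exact two-sided sign-flip permutation test, p = 0.0625, the smallest possible). The level did not settle the matter: 356 genes of the top quintile had no peak in any heart, and 42 genes of the bottom quintile had one in all 5. A gene with no listed peak is a gene without a call, at a depth that is unknown, and not a gene shown to lack the mark. Over all listed genes, Spearman's rho between mean FPKM and the number of hearts with a peak was 0.52. It is a description across genes, which share their libraries.

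The most abundant transcripts with a peak in all 5 hearts, after those of the mitochondrial genome, were Myh6 and Myl2. Myh6, the main myosin heavy chain of the adult mouse heart, stood at 2416, 1918, 2110, 2012 and 2602 FPKM in hearts db/+ 1 to 5, and Myl2, the ventricular regulatory light chain, at 1863, 1561, 1797, 1746 and 2232 FPKM. The Myh6 region lay at chr14:54941921-54956526 on the minus strand, ran over coding sequence and 3′ UTR in all 15 of its peaks, and had best folds of 4.22, 3.66, 4.06, 4.63 and 3.40. The Myl2 region, at chr5:122104891-122113472 on the plus strand, had 15 peaks over coding sequence and 3′ UTR and 5 in the 3′ UTR alone. Such regions span introns in the genome because a peak follows the spliced transcript.

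Some abundant nuclear transcripts had a peak in no heart. Usmg5, a small subunit of the ATP synthase, was at 1047, 1050, 1112, 1006 and 1104 FPKM. Cox8b, a heart and muscle subunit of cytochrome oxidase, was at 826, 795, 809, 719 and 916 FPKM, and Ckm, the muscle creatine kinase, at 458, 401, 448, 451 and 451 FPKM. These levels exceeded those of 3 in 4 genes that had a peak in all 5 hearts, whose upper quartile was 26.2 FPKM. Rplp1, a stalk protein of the ribosome, was at 486, 722, 518, 495 and 633 FPKM, also without a peak. The other 6 of the 10 most abundant genes with no peak were Atp5a1, Cox4i1, Uqcr11, Gsn, Bsg and Rplp0, at means of 338 to 825 FPKM. Among genes of the top quintile, those with a peak in all 5 had a median genomic length of 18.7 kb and those with none 8.61 kb.

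Other abundant transcripts had a peak in some hearts. Fabp3, the fatty acid binding protein of heart muscle, was at 3193, 2836, 2844, 2966 and 3025 FPKM and had a peak in heart db/+ 5 alone, of fold 1.33. Actc1, the cardiac actin, was at 3239, 3024, 2505, 3028 and 3236 FPKM and had peaks in hearts db/+ 2, 4 and 5, of folds 1.36, 1.37 and 2.14. Both genes were thus near the lower end of the listed folds, which began at 1.05.

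At the other end of the scale, the 8 genes of lowest level with a peak in all 5 hearts were Nek6, Gpsm2, Pet117, Rad9b, Map3k12, Eml5, Agbl5 and Dvl2, at means of 0.468 to 0.748 FPKM. Nek6, a kinase of mitosis, was at 0.364, 0.549, 0.475, 0.457 and 0.495 FPKM and had a peak in its 3′ UTR at chr2:38588014-38588284 on the plus strand, with folds of 2.06, 2.12, 2.56, 2.58 and 4.40. Pet117, an assembly factor of cytochrome oxidase, was at 2.58 FPKM in heart db/+ 1 and at most 0.0307 FPKM in the other 4, yet had a peak in each heart. Map3k12, a kinase upstream of JNK, and Dvl2, a transducer of Wnt signals, also had their shared region in the 3′ UTR.

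Coding sequence and 3′ UTR held nearly all peaks. Of the distinct peaks of a heart, 41.7 ± 4.24% lay in coding sequence alone, 38.0 ± 5.38% in the 3′ UTR alone, 17.1 ± 1.57% over both and 3.18 ± 0.71% touched a 5′ UTR (SD, n = 5), where the part is the one the authors' lists give. Different transcripts of a gene give peaks at shifted positions, so that genes with many listed transcripts count more. With overlapping peaks of a heart merged, the 3′ UTR alone held 46.7% and coding sequence alone 34.0%, and the order of these parts turned round. By gene, 1174 (9.9% of those listed) had a peak in the 3′ UTR alone in every heart, 821 (6.92%) in coding sequence alone, 650 (5.48%) over both and 83 (0.7%) over a 5′ UTR.

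**Figure D3:**
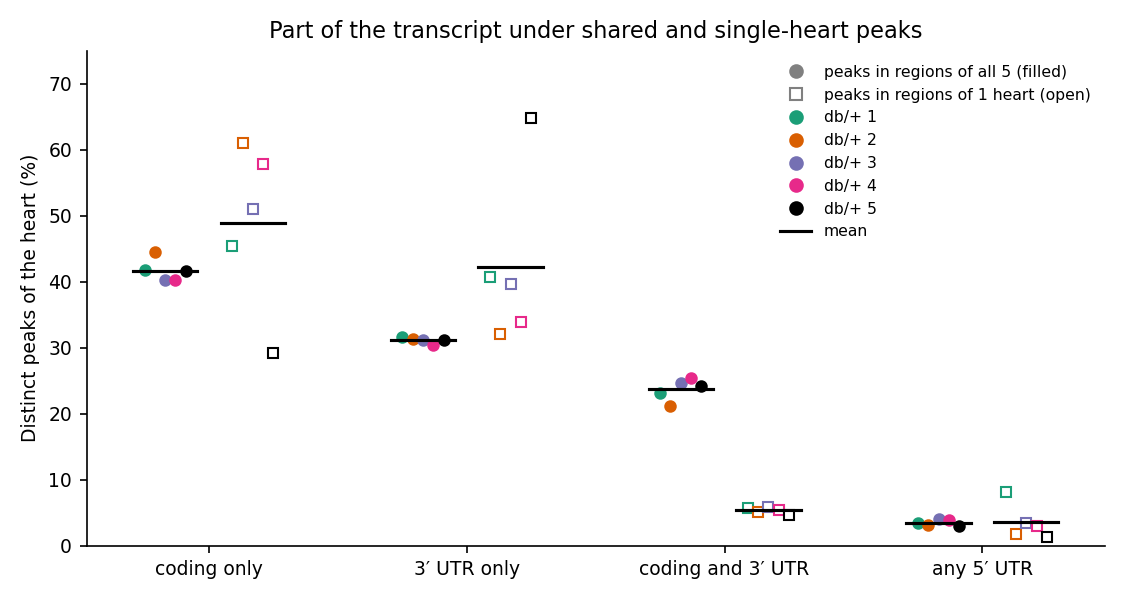
Share of a heart's distinct peaks by part of the transcript, for peaks in regions of all 5 hearts (filled circles) and peaks in regions of that heart alone (open squares); colours are hearts and bars are means of 5. Peaks over coding sequence and 3′ UTR make up 23.7% of shared peaks and 5.34% of single-heart peaks, and the open square of heart db/+ 5 lies apart at 64.8% for the 3′ UTR.

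Peaks over coding sequence and 3′ UTR, which bridge the stop codon, formed a larger share of the peaks common to all hearts than of those in a single heart. In the region set of all 5 hearts, 23.7 ± 1.67% of peaks ran over coding sequence and 3′ UTR, against 5.34 ± 0.47% of peaks in regions of 1 heart alone (SD, n = 5). The difference was 18.4 ± 1.65 percentage points and positive in 5 of 5 hearts (exact two-sided sign-flip permutation test, p = 0.0625, the smallest possible). The shared and single-heart classes use the peaks of all 5 hearts, so differences between them, here and below, are not independent from heart to heart. Peaks in the 3′ UTR alone made up 31.1 ± 0.42% of shared peaks and 42.2 ± 13.1% of single-heart peaks, a difference of -11.1 ± 13.1 points with the same sign in 5 of 5 hearts (exact two-sided sign-flip permutation test, p = 0.0625). Heart db/+ 5 held the largest of these differences, with 31.1% of its shared and 64.8% of its single-heart peaks in the 3′ UTR. For coding sequence alone the shares were 41.7 ± 1.73% of shared and 48.9 ± 12.5% of single-heart peaks (exact two-sided sign-flip permutation test, p = 0.25), and for the 5′ UTR 3.49 ± 0.47% and 3.53 ± 2.74% (exact test of the same kind, p = 1).

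Peak length moved with the same split. The median peak was 299 ± 41.0 bases long in regions of all 5 hearts and 96.8 ± 13.0 bases in regions of 1 heart (SD, n = 5). The part of peak length in the bridging share was not tested. Shared peaks ranked lower by fold within their lists, with a median at 52.0 ± 3.80% from the top, against 28.5 ± 5.84% for single-heart peaks. In genes of the top FPKM quintile, 20.1 ± 1.33% of peaks bridged coding sequence and 3′ UTR, against 9.83 ± 2.18% in genes of the bottom quintile, a difference of 10.3 ± 2.1 points and positive in 5 of 5 hearts (exact two-sided sign-flip permutation test, p = 0.0625). The share in coding sequence alone was 37.3 ± 3.60% in the top quintile and 42.1 ± 5.05% in the bottom quintile, and the sign of this difference turned round, to 7.62 points, when only peaks with a deposited p-value of 1e-05 or less were kept.

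**Figure D4:**
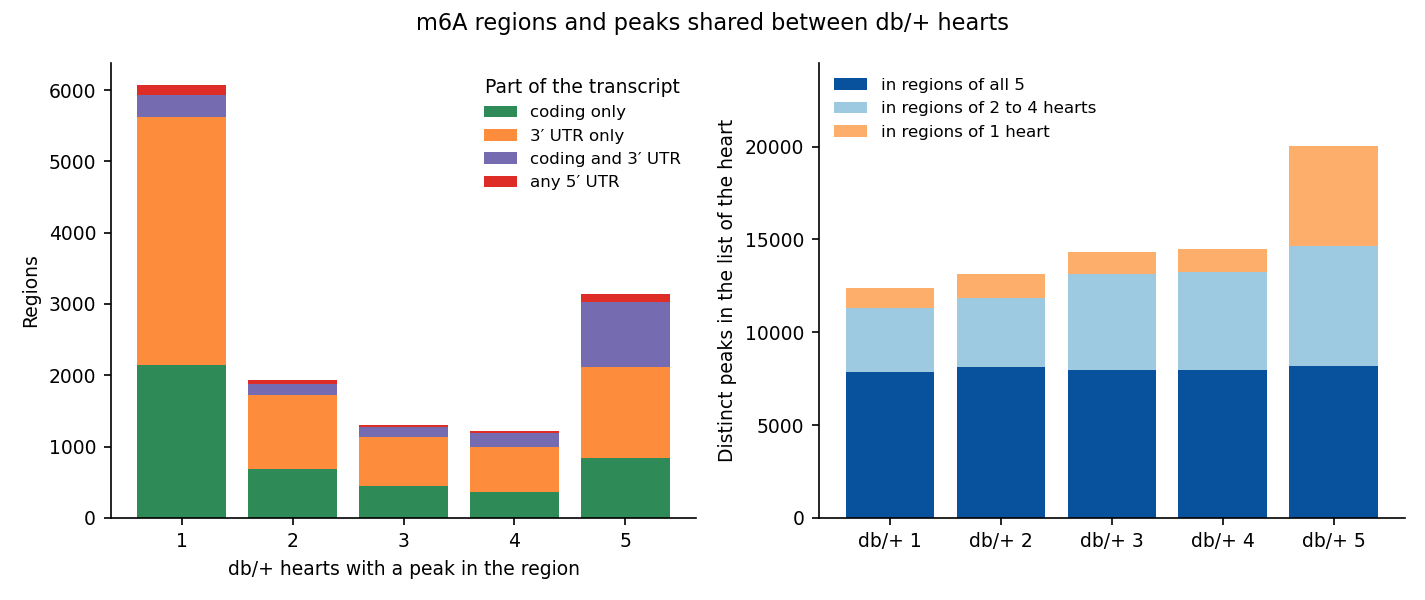
Left, number of merged regions by the number of db/+ hearts with a peak in them, coloured by part of the transcript. Right, distinct peaks of each heart by the class of their region. The 3139 regions of all 5 hearts have the largest bridging share, and the 6077 regions of 1 heart are the most numerous, with heart db/+ 5 holding most peaks of this class.

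Merged over hearts, the peaks formed 13678 regions. A peak of all 5 hearts was present in 3139 of them (22.9%), of 2 to 4 hearts in 4462 (32.6%) and of 1 heart in 6077 (44.4%). Regions of 1, 2, 3, 4 and 5 hearts bridged coding sequence and 3′ UTR in 4.90%, 8.14%, 10.6%, 16.7% and 29.0% of cases, and their median peak length was 91, 121, 150, 180 and 299 bases. Sharing thus went with both properties at every step. Between pairs of hearts, shared regions were 39.9% to 57.8% of those present in either.

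Long transcripts of the contractile apparatus and the cytoskeleton held the most regions shared by all hearts. Ttn, which codes for the molecular spring titin, had 35 such regions, and its level was 64.5, 54.3, 62.2, 57.4 and 49.4 FPKM. Its many annotated transcripts gave an average of 252.2 listed peaks per heart, so peaks are no count of sites there. Ahnak (a giant scaffold protein) had 7 regions, Tacc2 had 6, and Cmya5, Ryr2, Limch1, Dst and Tpr had 5 each. Another 399 genes had 2 to 4 such regions. Over the 2799 genes with a peak in all 5 hearts, Spearman's rho between transcript length and peaks per heart was 0.28, again across genes of the same libraries.

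Genes with a peak in all hearts were also ranked by the mean fold rank of their strongest peak in each heart. The leading ones were Ttll1, mt-Nd4, Tcea1, Olfr558, Slc27a1, Vamp5, Fabp4, Polr3gl, Bmp4 and mt-Atp6. The strongest peak need not lie in a shared region. Ttll1, a ligase that adds glutamate chains to tubulin, was at 15.2, 11.2, 7.69, 13.3 and 13.5 FPKM, and its 3′ UTR peak at chr15:83483772-83484159 on the minus strand had folds of 18, 20.7, 28.4, 22.8 and 34.4. Slc27a1, a transporter of long-chain fatty acids, was at 22.2, 20.0, 20.4, 18.8 and 20.6 FPKM. Its 3′ UTR region at chr8:71586105-71586708 on the plus strand had folds of 8.54, 18.5, 20.8, 33.8 and 34.4. Both peaks were among the strongest of their lists in each heart, at a mean of 0.355% and 2.17% from the top by fold. Bmp4, a ligand of the bone morphogenetic protein family, reached folds of 32.2, 9.07, 20.0, 14.5 and 16.4 at a mean of 2.77 FPKM, mostly in coding sequence, at chr14:46383550-46384568 on the minus strand. Fabp4, an adipocyte and endothelial fatty acid binding protein, reached 32.2, 10.9, 15.4, 22.1 and 14.8 at a mean of 177 FPKM.

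**Figure D5:**
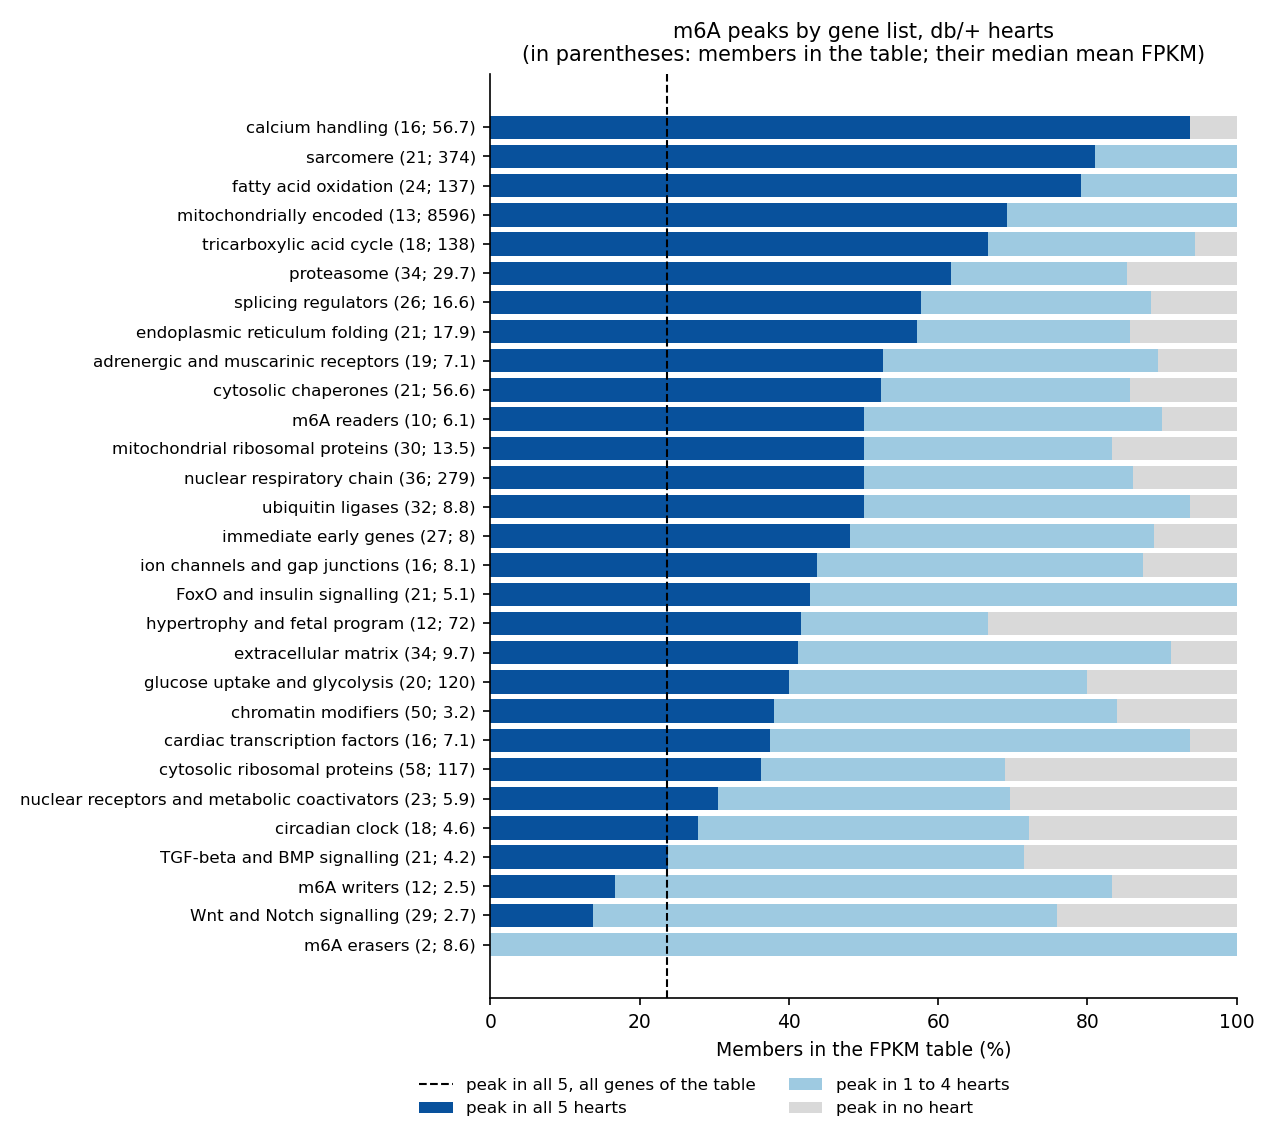
Share of the listed members of 29 gene lists with a peak in all 5 db/+ hearts, in 1 to 4 and in none; the dashed line is the share of all listed genes with a peak in all 5, 23.6%. Numbers beside each name give the members in the FPKM table and their median level in FPKM. Calcium handling, sarcomere and fatty acid oxidation lie at the top, and Wnt and Notch signalling and the m6A writers and erasers lie left of the line. The line is not matched for transcript level.

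Gene function was described with 29 lists of 693 genes, chosen with earlier results of these data known. Of their 679 members in the table, 319 had a peak in all 5 hearts, or 47.0%, against 23.6% of all listed genes. The lists lean to well-expressed genes: 26 of 29 had a median level above the 3.96 FPKM of all listed genes, and 26 had a share above 23.6%. For a list of abundant genes the nearer comparison is therefore the 55.2% of the top FPKM quintile. For other lists it is the share in the quintile of the list's median level, although members can spread over several quintiles. No list was tested as a set.

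Transcripts for contraction carried peaks in nearly every case. Of 21 sarcomere genes, all in the top quintile, 17 had a peak in all 5 hearts (81.0%), against 55.2% in that quintile. The other 4, with a peak in some hearts, were Actc1 and the light chains Myl3, Myl7 and Myl4. The median level of the 21 was 374 FPKM. Beside Myh6 and Myl2, the troponins Tnnc1 at 1137 ± 127 FPKM and Tnni3 at 1097 ± 193 FPKM had bridging peaks in every heart (SD, n = 5). Mybpc3, the cardiac myosin binding protein C, at 545 ± 30.0 FPKM, had coding regions at chr2:91124630-91126270 and chr2:91128749-91130938 and a 3′ UTR region at chr2:91136300-91136516. With only peaks of a fold of 2 or more, 11 of the 17 remained in the class, against 2509 of 2799 for all listed genes. Such a cut falls more on abundant genes, whose peaks ranked lower by fold. Coding peaks had a median at 80.0% from the top of the list in the top FPKM quintile and 9.23% in the bottom. For 3′ UTR peaks these were 69.2% and 11.9%.

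Calcium handling was the list with the largest share. In 15 of 16 genes, or 93.8%, a peak was listed in all 5 hearts, and in 12 of 12 members of the top quintile. Over all genes of that quintile the share was 55.2%, and over all listed genes 23.6%. Atp2a2, the calcium pump SERCA2 of the sarcoplasmic reticulum, was at 1416, 1232, 1212, 1303 and 1258 FPKM, and in its shared region, at chr5:122469636-122501986 on the minus strand, 9 of 10 peaks touched the 5′ UTR. Ryr2, the calcium release channel, was at 57.1, 51.0, 50.2, 49.1 and 54.5 FPKM and had 5 shared regions, of which 4 were coding and that at chr13:11553102-11555480 ran into the 3′ UTR. Pln, the pump's inhibitor phospholamban, Casq2, the store's calsequestrin, and Slc8a1, the sodium-calcium exchanger, had 2 shared regions each. The exception was Fkbp1b, a partner of the release channel, at 0.477 ± 0.169 FPKM with no peak. Of 16 ion channel and connexin genes 7 had a peak in all hearts (43.8%), Kcnj11 and Gja1 among them, and 2 had none, Kcnq1 and Hcn2. The median level of this list lay in the fourth FPKM quintile, where the share with a peak in all 5 was 35.0%.

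Among genes of fuel use, the share with a peak in all 5 hearts ran from 40.0% to 79.2% by pathway. It was 55.2% over the top quintile, which held all or most members of each of these lists. Of 24 fatty acid oxidation genes, all in the top quintile, 19 had a peak in all 5 hearts (79.2%) and 5 in some. Acadl and Acadvl, dehydrogenases of long chains, at 537 ± 28.9 and 316 ± 28.9 FPKM, and Cd36, the fatty acid translocase, at 374 ± 40.2 FPKM, were among the 19 (SD, n = 5). Of the list's 259 peaks 61.4% lay in the 3′ UTR alone. In the tricarboxylic acid cycle 12 of 18 genes had a peak in all hearts (66.7%), with Mdh1 among them, and Mdh2 had none at 238 ± 20.1 FPKM. In glucose uptake and glycolysis the count was 8 of 20 (40.0%), and 7 of the 18 members in the top quintile (38.9%). Another 4 had a peak in none: Pgk1 at 136 ± 7.37 FPKM, Gapdh at 129 ± 34.4 FPKM, Pgam1 and Eno1. Those with a peak in all 5 included the hexokinases Hk1 and Hk2, the insulin-responsive glucose transporter Slc2a4 and Pdk4, the kinase that shuts pyruvate dehydrogenase. With only folds of 2 or more, a cut that falls more on abundant genes, the counts for fatty acid oxidation and the cycle were 11 and 5.

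The nuclear subunits of the respiratory chain were all in the top quintile, and 18 of 36 genes had a peak in all hearts (50.0%), 13 in some and 5 in none. Over that quintile the share with a peak in all 5 was 55.2%. Atp5h, Ndufb9 and Cox7b were among the 18, and Atp5a1, Cox8b, Cox4i1, Ndufs3 and Ndufb8 had no peak. With only folds of 2 or more, a cut that falls more on abundant genes, 8 genes had a peak in all 5. Of the 13 mitochondrially encoded transcripts, 9 had a peak in all 5 hearts and the other 4 in some, among them mt-Co1, the most abundant transcript of the table at 28980 FPKM. The mitochondrial genome held 10, 15, 11, 11 and 16 peaks in hearts db/+ 1 to 5. The strongest peak of mt-Nd4 had folds of 31.8, 17.4, 15.1, 23.5 and 73.7 at 9419, 8385, 9533, 9420 and 6221 FPKM, while that of mt-Nd1 ranged from 1.09 to 2.15. The lists label some of these peaks as 3′ UTR, a part for which mitochondrial transcripts have little room, and the label is given as deposited.

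Ribosomal protein transcripts were abundant, and most had no peak common to all hearts. All 58 cytosolic members were in the top quintile, and 21 (36.2%) had a peak in all 5 hearts, 19 in some and 18 in none, against 55.2% with a peak in all 5 in that quintile. Rpl4 and Rpl19, at 260.0 ± 17.6 and 242 ± 25.0 FPKM, had a peak in every heart, and Rplp1, Rplp0 and Rps29 had none. These are short transcripts, with a median length of 762 bases among members with a peak, and 80.0% of the list's 335 peaks bridged coding sequence and 3′ UTR. The part of the short length in this share was not tested. Of 30 mitochondrial ribosomal protein genes, 15 had a peak in all hearts (50.0%), and of 34 proteasome genes 21 (61.8%). The median levels of these whole lists were 13.5 and 29.7 FPKM, both in the top quintile with its 55.2%. Over all listed genes the share was 23.6%. Psmb1 and Psmc5 were among the 21, and Psma6, Psmb5 and Psmb2 had no listed peak.

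Among regulators of transcription the share of genes with a peak in all 5 hearts ran from 30.4% to 38.0% by list, beside 23.6% of all listed genes. In the FPKM quintile of the list's median level, it was 18.9% for chromatin modifiers and 35.0% for the other lists here. In 19 of 50 chromatin modifier genes (38.0%) a peak was listed in all 5 hearts, at a median level of 3.17 FPKM for the list, and 65.5% of its 824 peaks lay in coding sequence alone. Chd4, a remodeller of the NuRD complex, at 16.7 ± 1.56 FPKM, had 3 shared coding regions, and Kdm5a, Nsd1 and Arid1a had shared coding peaks at 2.54 to 3.97 FPKM. With only peaks of a deposited p-value of 1e-05 or less, 3 of the 19 remained, against 1742 of 2799 for all listed genes. Of 16 cardiac transcription factors 6 had a peak in all hearts: Hand2, Gata6, Gata4, Tbx5, Mef2a and Tbx20. Nkx2-5, at 22.4 ± 6.35 FPKM, had a peak in 1 heart and Irx4 in none. Nuclear receptors and their coactivators had 7 of 23 (30.4%), with Ppargc1a, Nr3c1 and Rxra marked in the 3′ UTR and Rxrg, Rxrb and Nr1h2 without a peak.

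Across signalling and clock lists the share of genes with a peak in all 5 hearts ran from 13.8% to 52.6%, beside 23.6% of all listed genes. In the FPKM quintile of the list's median level, it was 7.17% for Wnt and Notch and 35.0% for adrenergic and muscarinic signalling. For the other lists here it was 18.9%. Wnt and Notch signalling had a peak in all hearts in 4 of 29 genes (13.8%), namely Ctnnb1, Fzd4, Apc and Dvl2. The median level of the 29 was 2.73 FPKM. TGF-beta and BMP signalling had 5 of 21 (23.8%), among them Bmpr2 and Bmp4, and Smad4, Tgfbr2 and Smad5 had no peak. The FoxO and insulin list had 9 of 21 (42.9%) and no member without a peak; Foxo3, Foxo4, Insr and Pik3r1 were marked in every heart and Akt1, at 33.1 ± 4.44 FPKM, in 4. Adrenergic and muscarinic signalling had 10 of 19 (52.6%), including the receptors Adrb1 and Chrm2 in their 3′ UTR. Of 18 clock genes 5 had a peak in all hearts (27.8%), Nr1d2, Tef, Dbp, Bhlhe40 and Rora, while Per2, Cry1 and Arntl had none.

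Over all listed genes, 23.6% had a peak in all 5 hearts. The median levels of the immediate early, ubiquitin ligase and extracellular matrix lists lay in the fourth FPKM quintile, where the share was 35.0%. Those of the other lists here lay in the top quintile, where it was 55.2%. Immediate early genes had 13 of 27 members marked in every heart (48.1%), with Mcl1 at 62.7 ± 4.70 FPKM, Jund and Klf6 among them, while Fos, Socs3 and Nr4a3 had no peak. Splicing regulators had 15 of 26 (57.7%), including Rbm20, which governs titin splicing, at 25.7 ± 2.44 FPKM. The folding machinery of the endoplasmic reticulum had 12 of 21 (57.1%), cytosolic chaperones 11 of 21 (52.4%) and ubiquitin ligases 16 of 32 (50.0%), where both muscle ligases Trim63 and Fbxo32 had 2 shared regions. Cryab, an abundant small heat shock protein of heart muscle, was at 331 ± 69.2 FPKM with no peak. Extracellular matrix genes had 14 of 34 (41.2%), among them Dcn, Timp3 and Col4a1. Of 12 genes of the hypertrophy program 5 had a peak in every heart, among them Ankrd1 and Myh7, 3 had one in some, among them Nppa, and Acta1, Nppb, Acta2 and Edn1 had none.

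Among genes of the m6A machinery, some had a peak in all 5 hearts and some in none, at levels that also differed. Those without a listed peak are not shown to lack the mark. Wtap, the adaptor of the writer complex, was at 5.56, 6.83, 6.08, 5.53 and 5.78 FPKM and had 3 regions shared by all hearts, with best folds of 14.2, 4.57, 4.03, 12.4 and 14.9. The strongest, at chr17:12967154-12967691 on the minus strand, lay over coding sequence and the 3′ UTR. Zc3h13, which anchors the complex in the nucleus, was at 6.13, 5.81, 6.80, 6.40 and 8.28 FPKM and had 3 shared coding regions. The best folds of the gene were 18, 7.62, 10.8, 11.7 and 5.15, the last from outside these regions, which reached 3.87 in heart db/+ 5. Mettl3, the catalytic subunit, was at 2.23, 1.81, 1.94, 2.26 and 1.94 FPKM and had no peak, nor had Pcif1 at 3.44 ± 0.436 FPKM, the writer of the related mark next to the cap. In the second FPKM quintile, which holds Mettl3, 46.5% of genes had no peak in any heart. In the third, which holds Pcif1, the share was 34.2%. The other 8 of the 12 writers had a peak in some hearts: Mettl5 in 4, Rbm15, Rbm15b and Cbll1 in 3, and Mettl14, Virma, Mettl16 and Zcchc4 in 2. Thus 2 of 12 writers (16.7%) were marked in all 5 hearts, beside 23.6% of all listed genes. The list's median level of 2.53 FPKM lies in the second FPKM quintile, where the share was 7.17%. Wtap and Zc3h13 lie in the fourth, where it was 35.0%.

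Both erasers had a peak in 1 heart. Alkbh5 was at 13.1, 13.5, 11.4, 12.3 and 13.9 FPKM with a peak in heart db/+ 2, of fold 4.04, and Fto was at 4.41 ± 0.387 FPKM. Among 10 readers 5 were marked in all hearts (50.0%), beside 23.6% of all listed genes. The list's median level of 6.13 FPKM lies in the fourth FPKM quintile, where the share was 35.0%. Ythdf2, the reader tied to decay, was at 4.21, 5.24, 4.86, 3.68 and 4.19 FPKM with best folds of 3.68, 4.04, 3.85, 4.23 and 14.9. The nuclear reader Ythdc1 had 2 shared regions at 2.91 ± 0.303 FPKM, Ythdf3 had 1 at 11.2 ± 2.70 FPKM, and Hnrnpa2b1 and Hnrnpc had 1 each. Ythdf1, at 9.58 ± 0.955 FPKM, and Ythdc2 had a peak in 1 heart, Rbmx and Fmr1 in 2, and Igf2bp2 in none at 0.694 ± 0.0961 FPKM. In the lowest FPKM quintile, which holds Igf2bp2, 73.1% of genes had no peak.

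Transcripts of other cell types also appeared in the map. For comparison, 23.6% of all listed genes and 55.2% of the top FPKM quintile had a peak in all 5 hearts. Of 7 markers each, 5 of smooth muscle and pericytes (among them Rgs5 and Pdgfrb), 4 of fibroblasts (among them Dcn and Pdgfra), 4 of macrophages (among them Lyz2 and C1qa) and 3 of endothelium (Cdh5, Pecam1 and Kdr) had a peak in all 5 hearts, beside 7 of 8 for cardiomyocytes. None of 5 erythroid markers had a peak in any heart, although Hbb-bs, a beta globin, was at 82.2, 260, 578, 403 and 141 FPKM and the summed level of the list ran from 197 to 1464 FPKM. None of the 5 listed skeletal muscle markers had a peak, Ckm and Acta1 being the abundant ones. The near-identical copies of globin genes can share reads, which makes their levels uncertain. Of 7 adipocyte markers, whose summed level ran from 169 to 375 FPKM, Fabp4 alone had a peak in every heart. Of the 4 atrial markers Sln alone had one in every heart, and none of the 5 epicardial or 3 listed Schwann cell markers did.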

How the data were processed

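Input and m6A-immunoprecipitated poly(A) RNA of 5 db/+ hearts was analysed; groups follow the sample titles. Per the submitters' processing notes, with no roles stated, HISAT2 2.1.0, Trimmomatic 0.32 and FastQC 0.11.7 were used and mm9 was the build; for FPKM and for peaks the program is not given in the sources used here. Gene positions as deposited were close to those of GRCm38.p6. The authors deposited FPKM per gene and animal, and per animal a list of peaks with a fold (a linear ratio), a p-value and the transcript length. The other 5 FPKM columns were not used. Depth is unknown, so no counting intervals are given, and p-values cover only the spread between these 5 hearts.

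Repeated peak lines (3.58%) were dropped. Peaks on the same strand that overlapped by 1 or more exonic bases were merged into regions. The code recovered all 2000 of 2000 simulated regions. These lay far apart and their peaks always overlapped, so the check does not cover chains of shifted peaks as in the real lists. Genes were classed by the hearts with a peak. Differences within hearts were tested by the exact two-sided sign-flip permutation over 32 sign patterns, with 0.0625 as the smallest p; with 5 hearts this test cannot pass 0.05. Log values are log2(FPKM + 1).

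Members and lists were chosen with earlier results of these data known. Named genes are the 10 of highest FPKM with a peak in all hearts and in none, the 10 with most shared regions, the 10 of best fold rank, the 8 of lowest FPKM with a peak in all, the leading genes by list (those by part were picked too but are not named), and all m6A writers, erasers and readers; Fabp3, Actc1, mt-Co1 and further members of the lists and marker lists were named after their values were seen. Predicted genes were passed over. Python 3.11.15, numpy 2.4.6, pandas 2.3.3, scipy 1.17.1 and matplotlib 3.10.9 were used. A few genes picked by these criteria are not reported here.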

Additional observations from a re-analysis of the deposited data

Results flagged for a closer look

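Of 64 values compared over the 5 hearts, 13 had a highest or lowest heart far from the other 4 by Dixon's gap ratio; chance sets apart about 1 in 20. Heart db/+ 5 was the highest in 11 of them. It had 20021 distinct peaks, 6190 listed genes with a peak, 26.8% of its peaks in regions of no other heart and 1018 genes with a peak in no other heart. Of its single-heart peaks 64.8% lay in the 3′ UTR alone. The share of genes with a peak was 19.1%, 42.0% and 56.3% in the lowest, the second and the third FPKM quintile of this heart. The best peak folds of mt-Nd4 (73.7), Ythdf2 (14.9) and Nek6 (4.40) were also highest there. Ckm was lowest in heart db/+ 2, at 401 FPKM, and Pet117 was highest in heart db/+ 1, at 2.58 FPKM.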

How the results depend on the processing

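Of 423 recomputed values, 389 were classed as unchanged. For counts this meant within 1.5 times, for shares within the SD over hearts, and for differences the same sign. The size of a difference was not part of the rule. With each heart left out in turn, the genes with a peak in all remaining hearts numbered 2855 to 3153, and the difference in the share of genes with a peak between the top and the bottom quintile was 59.3 to 60.3 points. With only peaks of a deposited p-value of 1e-05 or less, 1742 genes had a peak in all 5 hearts, 2666 in some and 7448 in none, the regions of 5, of 2 to 4 and of 1 heart numbered 1969, 2247 and 2045, and 25.0% of peaks bridged coding sequence and 3′ UTR. Fewer peaks enter by construction there. With overlapping peaks merged, coding sequence alone held 34.0% and the 3′ UTR alone 46.7%. The 5′ UTR differences had no stable sign. Between shared and single-heart peaks the difference was -0.034 points, -0.707 to 0.818 with a heart left out and 0.352 with the stricter p-value. Between the top and the bottom quintile it was -0.089 points, -0.792 to 0.702 with a heart left out, 0.312 with folds of 2 or more and 0.582 with merged peaks; the cause was not tested. The coding share of the top minus the bottom quintile turned to 7.62 points with the stricter p-value. Of 232 recomputed list counts, 215 stayed within 1.5 times. No paired analysis was possible because only the db/+ group was analysed, so that no replicate numbers are shared with another group; the sign-flip tests are made within hearts. Depth is unknown, so genes without a peak may lie below detection, and the exact sign-flip test over 5 hearts cannot give a p under 0.0625.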
